A study of Mus musculus with 16 samples.

Results

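The livers of calorie-restricted mice were compared with those of mice given saline, the vehicle control, in a study of obese mice with fatty liver. All 8 animals compared were C57BL/6 mice aged 22 weeks with diet-induced obesity and hepatic steatosis. The members of the comparison are 4 calorie-restricted animals (numbers 7, 8, 52 and 79), in which an equivalent weight loss was reached by restricting food, and 4 saline animals (numbers 35, 50, 73 and 78). They are 8 of the 16 livers in the series. The other livers came from 4 mice treated with Semaglutide, an agonist of the glucagon-like peptide-1 receptor, and 4 treated with Dicretin, a co-agonist of that receptor and the glucagon receptor. Each liver gave 1 poly(A)-selected RNA-seq library, so that an animal is 1 replicate. The sex of the animals, the composition of the diet, the length of restriction, the time of the last meal and the hour of collection are not given in the sources used here.

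When food is scarce, the liver releases fuel. Many liver genes also follow a daily rhythm. In the liver clock, BMAL1 (encoded by Arntl) and CLOCK activate the genes of their own repressors (the Per and Cry genes), the nuclear receptors REV-ERBα and REV-ERBβ (Nr1d1 and Nr1d2) repress Arntl, and feeding time can shift this rhythm. Secretory and lipid-handling work in hepatocytes depends on the endoplasmic reticulum, whose folding chaperones are induced together when its load of unfolded protein grows.

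The files give 13500683 to 18755393 gene counts per calorie-restricted library and 12143829 to 16360741 per saline library. Values are given as CPM, gene counts scaled to a common library size and corrected for library composition, and differences as log2 fold changes, calorie restriction minus saline, ± their standard error (SE). The first principal component of the 8 libraries held 41.96% of their variance and separated the groups, with the calorie-restricted libraries at -35.36 to -25.15 and the saline libraries at 28.88 to 32.77. On the second component (15.17%) calorie-restricted mouse 8 stood apart at -39.79, and on the third (12.52%) saline mouse 78 did at 38.66. Genes of hepatocytes dominated every library: Alb, which encodes albumin, took 9.249% to 12.05% of the counts in calorie-restricted and 7.763% to 8.881% in saline livers. Of 12 hepatocyte markers 2 rose and none fell, with a median of 0.18; 3 were higher at an unadjusted p under 0.05 and by DESeq2's Wald test. Their summed level, most of it Alb, which did not pass (edgeR adjusted p = 0.0978), was 134300 to 154500 CPM against 102900 to 124000 CPM. Alb passed by DESeq2's Wald test, with a correction for gene length and in a fit of these 2 groups alone. The digestive enzyme, insulin and muscle genes Prss2, Pnlip, Amy2a5, Ins2, Acta1, Myh4 and Ckm had 0 counts in the 8 libraries. Of the 15 fat cell, pancreas and muscle markers, 3 were tested. Cfd, described below, fell, and 2 others had positive differences, up to 0.607, that did not pass. The summed level of the 3 was 21.78 to 38.57 CPM in calorie-restricted and 28.49 to 58.92 CPM in saline livers. In bulk tissue, fewer cells of a type and less RNA per cell cannot be told apart.

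Of 12910 genes tested with edgeR's quasi-likelihood test, 972 (7.53%) passed a Benjamini-Hochberg adjusted p of 0.05. Of these, 442 (3.42% of all tested) were higher and 530 (4.11%) lower in calorie-restricted livers, and 153 and 295 of them by at least 2-fold. The median log2 fold change over all tested genes was -0.011. Counts of list members that rose or fell are to be read beside 3.42% and 4.11% of all genes. For calorie restriction against saline, removing 1 library changed the number of calls by more than 1.5 times in 4 cases: 502 genes passed without calorie-restricted mouse 7, 526 without saline mouse 35, 554 without saline mouse 73 and 556 without saline mouse 50. When a trend of each library with gene length was removed, 800 genes were higher and 528 lower.

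**Figure D1:**
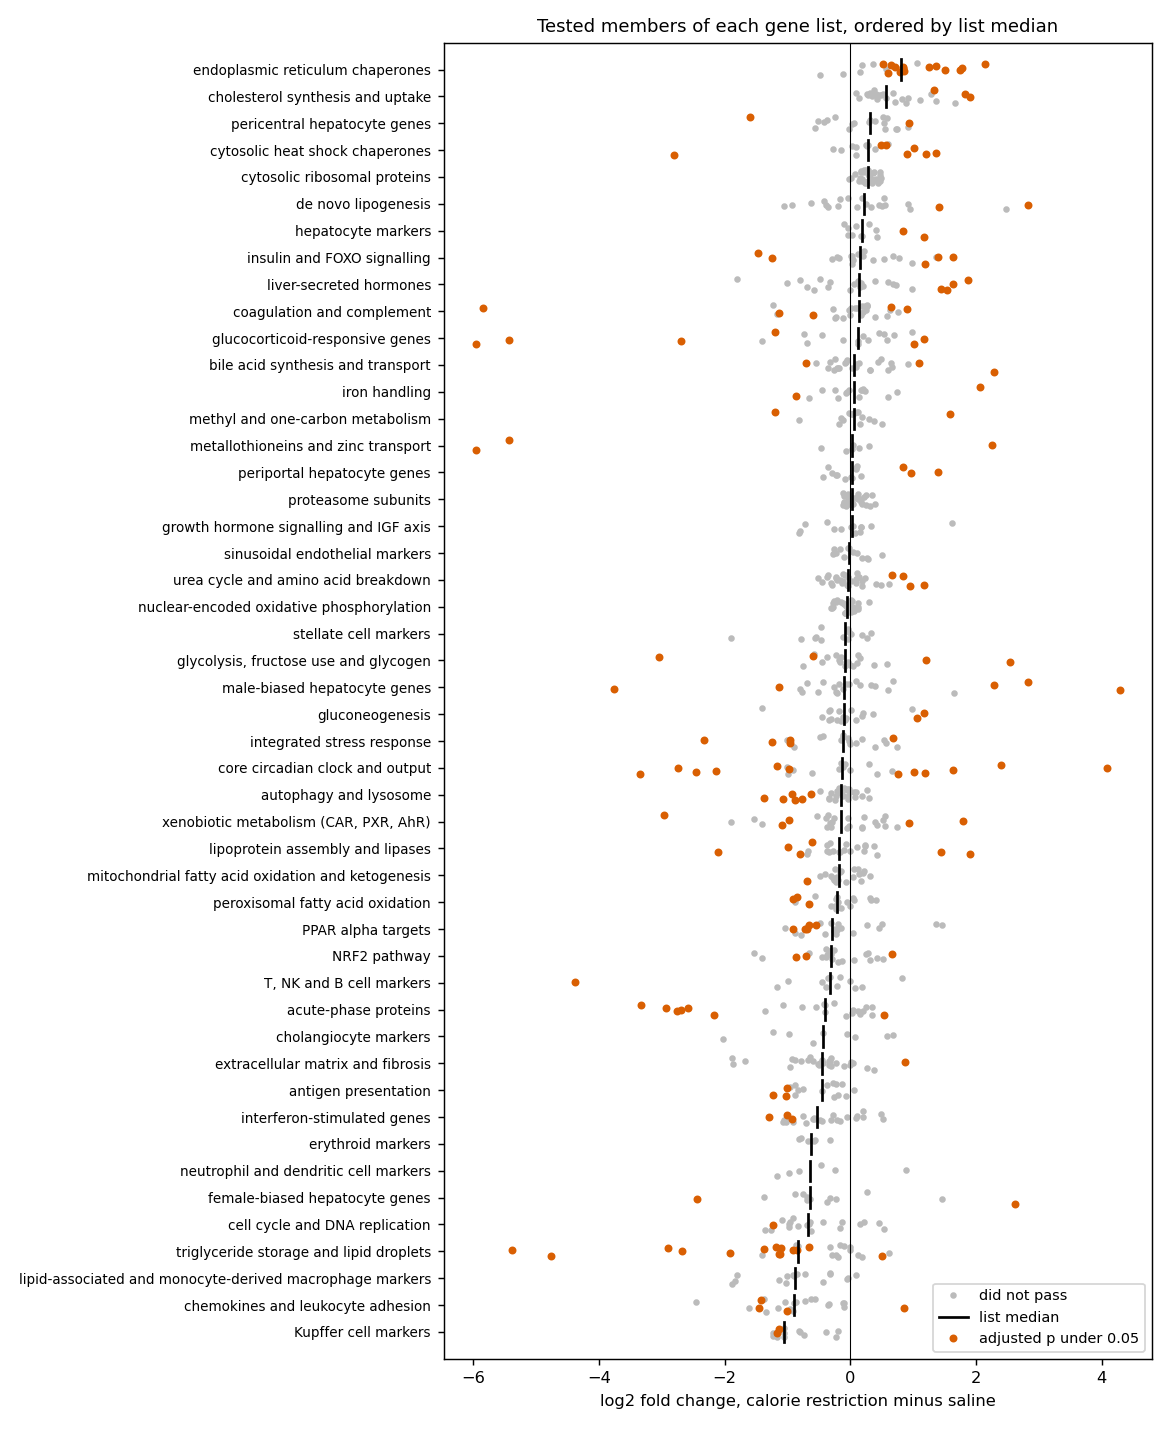
Horizontal axis: log2 fold change of each tested gene, calorie restriction minus saline. Each row is a gene list with at least 5 tested members, ordered by its median (black bar); orange points passed an adjusted p of 0.05 and grey points did not. Endoplasmic reticulum chaperones have the highest median (0.81) and Kupffer cell markers the lowest (-1.06), while the clock genes are split between both directions.

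Genes of the circadian clock and its outputs were among the genes with the largest differences, in both directions. Of 24 tested members of the clock list, 6 rose and 6 fell, against 3.42% and 4.11% of all genes, and 17 of the 24 had 4 and 4 values that did not overlap, against 22.9% of all genes. The list's median log2 fold change was -0.13, with 10 positive and 14 negative differences.

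On the activating side, Arntl (chr7:113207465-113314126, GRCm38), which encodes BMAL1, measured 18.3, 13.1, 25.8 and 33.8 CPM in calorie-restricted mice 7, 8, 52 and 79. In saline mice 35, 50, 73 and 78 it measured 1.29, 1.86, 1.70 and 0.331 CPM. The lowest calorie-restricted liver was thus well above the highest saline liver, and the difference was 4.09 ± 0.56 (17.0-fold, adjusted p = 0.000262, edgeR). Its partner Clock rose from 16.3 ± 1.78 to 37.3 ± 7.40 CPM (SD, n = 4 each; log2 fold change 1.19 ± 0.24, edgeR adjusted p = 0.00474). Npas2, which encodes a CLOCK relative that can take its place, was too low for the test: it had 11 and 45 counts in calorie-restricted mice 52 and 79, 0 in mice 7 and 8, and 1 count in all saline libraries together.

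The repressor genes Cry1 and Nfil3 also rose. Cry1, the core clock repressor, measured 51.0, 41.9, 64.8 and 65.0 CPM in the calorie-restricted livers and 10.5, 13.7, 8.91 and 9.26 CPM in saline livers. The lowest restricted liver was well above the highest saline liver, and the log2 fold change was 2.39 ± 0.22 (adjusted p = 3.67e-06, edgeR). Nfil3, a repressor that competes with the activator DBP, rose from 16.4 ± 4.59 to 51.1 ± 19.6 CPM (1.64 ± 0.23, edgeR adjusted p = 0.000331).

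Nr1d1, Nr1d2, the output gene Dbp and the repressors Ciart and Bhlhe41 fell. Nr1d1 measured 6.60, 7.33, 8.38 and 7.01 CPM in calorie-restricted livers and 34.0, 25.7, 38.7 and 31.1 CPM in saline livers (-2.14 ± 0.25, edgeR adjusted p = 3.74e-05). The calorie-restricted values lay within a narrow band, below every saline value. Nr1d2 fell from 85.1 ± 15.6 to 38.0 ± 9.84 CPM (-1.16 ± 0.19, edgeR adjusted p = 0.000925). Dbp (chr7:45705088-45710203), which encodes a PAR-domain output activator, measured 11.6, 15.2, 9.16 and 3.54 CPM against 102, 87.8, 106 and 106 CPM (-3.35 ± 0.38, edgeR adjusted p = 3.63e-05). Mouse 79 had the lowest Dbp and the highest Arntl. The clock repressors Ciart (-2.74 ± 0.50, edgeR adjusted p = 0.00265) and Bhlhe41 (-2.45 ± 0.45, edgeR adjusted p = 0.00269) fell as well. Tef, another PAR-domain output gene, did not pass (-0.62 ± 0.19, edgeR adjusted p = 0.0519).

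Rgs16, a regulator of G protein signalling that cycles in liver and was not on the clock list, fell further than any tested member of that list. It measured 2.16, 6.87, 4.87 and 11.9 CPM in calorie-restricted livers and 272, 115, 271 and 209 CPM in saline livers (-5.08 ± 0.42, 33.8-fold, edgeR adjusted p = 1.34e-06). None of the Per genes passed. Per1 was 23.6 ± 6.51 CPM in calorie-restricted and 25.6 ± 3.44 CPM in saline livers (edgeR adjusted p = 0.854), and Per2 was 30.08 ± 13.9 and 30.01 ± 1.82 CPM (edgeR adjusted p = 0.999). Per2 spread widely within the restricted group, from 13.3 CPM in mouse 79 to 46.2 CPM in mouse 8. Per3 (-1.0 ± 0.31, edgeR adjusted p = 0.0549) and Tef (-0.62 ± 0.19, edgeR adjusted p = 0.0519) had no overlap between groups but missed the threshold. Both passed with upper-quartile scaling, DESeq2's Wald test, limma-voom and the gene length correction. Per3 also passed without calorie-restricted mouse 8, and Tef in a fit of these 2 groups alone.

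Semaglutide-treated livers were set directly against the calorie-restricted ones in the same fit, which shares its calorie-restricted libraries with the comparison above. Of all tested genes, 790 (6.12%) differed, 394 (3.05%) higher and 396 (3.07%) lower with Semaglutide. Of the 24 clock genes 12 differed. Arntl was 0.931 ± 1.10 CPM with Semaglutide (SD, n = 4) and 22.8 ± 9.001 CPM with restriction (Semaglutide minus restriction -4.56, edgeR adjusted p = 0.000167). Dbp was 135 ± 12.2 against 9.87 ± 4.89 CPM (3.77, edgeR adjusted p = 1.96e-05), and Rgs16 was 302 ± 80.4 against 6.45 ± 4.11 CPM (5.56, edgeR adjusted p = 5.91e-07). These 3 genes kept their calls when any 1 library was left out. Dicretin-treated livers, which differed from restricted ones at 4041 genes (31.3%; 15.1% of all higher with Dicretin), had Arntl at 17.7 CPM (edgeR adjusted p = 0.588 against restriction) and Rgs16 at 0.2502 CPM (edgeR adjusted p = 8.96e-06). Of the clock genes, 13 of 24 differed between Dicretin and restriction.

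**Figure D2:**
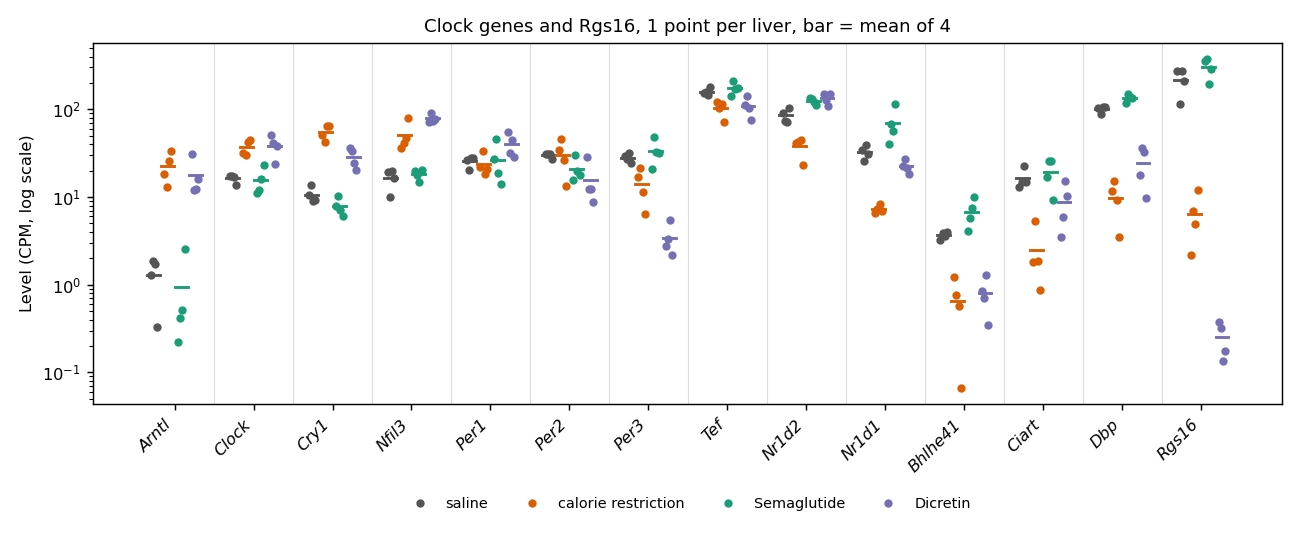
Vertical axis: level in CPM on a log scale; 1 point per liver, coloured by group, with a bar at each mean of 4. Arntl, Clock, Cry1 and Nfil3 are higher in calorie-restricted (orange) than saline (grey) livers and Nr1d1, Bhlhe41, Ciart, Dbp and Rgs16 lower, while Semaglutide livers (green) lie near saline for Arntl, Cry1 and Dbp.

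The start regions of some of these genes hold sequences by which the clock is known to act. RefSeq promoter windows (GRCm38.p6, 250 bases before to 50 after each start, 32851 windows) were searched on either strand for the E-box CACGTG, which BMAL1 and CLOCK bind, and for the ROR element TAGGTCA or TGGGTCA, which REV-ERB and ROR proteins bind. The 32851 windows belong to 27025 genes. A gene was counted as holding an element if any of its windows did, while shares of all windows count each window. The E-box was in 7.15% of all windows. Among clock genes with a window it was in Cry1 (1 of 5 that rose), Bhlhe41 and Ciart (2 of 6 that fell), and Per1 and Tef (2 of 9 that did not pass). The ROR element was in 6.45% of all windows, and in Arntl and Nfil3 (2 of 5 that rose). The stretches of Ciart and Cry1 before their starts are shown with the E-boxes in capitals, and 30 bases of Arntl at its second RefSeq start with the ROR element in capitals, each 5′ to 3′ on the gene's strand.
Ciart, chr3:95882252-95882478, minus strand: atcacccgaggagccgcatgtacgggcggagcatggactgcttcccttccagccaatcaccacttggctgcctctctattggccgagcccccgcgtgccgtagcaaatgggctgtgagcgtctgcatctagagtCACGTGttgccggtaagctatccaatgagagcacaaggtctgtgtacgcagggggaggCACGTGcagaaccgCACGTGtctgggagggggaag
Cry1, chr10:85185065-85185304, minus strand: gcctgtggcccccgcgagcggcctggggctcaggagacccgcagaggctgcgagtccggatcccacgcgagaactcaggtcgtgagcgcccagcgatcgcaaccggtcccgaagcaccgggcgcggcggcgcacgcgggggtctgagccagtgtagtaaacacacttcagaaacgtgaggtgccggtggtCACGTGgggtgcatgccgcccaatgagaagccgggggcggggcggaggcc
Arntl, chr7:113207529-113207558, plus strand: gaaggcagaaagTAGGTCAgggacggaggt
Ciart fell and Cry1 rose, so that genes with an E-box in this window moved in either direction. A match describes these letters and shows no binding.

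Genes for storing triglyceride in lipid droplets were lower in calorie-restricted livers. Of 28 tested members, 13 fell and 1 rose, beside 4.11% and 3.42% of all genes. A negative difference was found for 23 of the 28, and the median log2 fold change was -0.84. Between 9 and 13 members fell when 1 library was left out.

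The droplet-coating proteins CIDEA and CIDEC, which fuse small droplets into large ones, had the largest drops. Cidec (chr6:113424634-113435760) measured 1.05, 1.22, 3.30 and 1.47 CPM in calorie-restricted livers and 64.7, 64.6, 47.6 and 19.5 CPM in saline livers. The saline livers varied more than 3-fold, with mouse 78 lowest, yet none came near the restricted group (-4.77 ± 0.55, 27.3-fold, edgeR adjusted p = 5.44e-05). Cidea measured 0.0584, 0.382, 0.262 and 0 CPM against 7.81, 9.54, 8.51 and 4.14 CPM (-5.39 ± 0.55, edgeR adjusted p = 1.09e-05).

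Other droplet genes fell by less. Plin4, a perilipin coat protein, went from 46.7 ± 14.6 to 7.31 ± 3.12 CPM (-2.67 ± 0.49, edgeR adjusted p = 0.00318) and Plin3 from 54.7 ± 7.87 to 24.9 ± 2.46 CPM (-1.14 ± 0.15, edgeR adjusted p = 0.00018). Plin2, the main perilipin of fatty hepatocytes, was 438 ± 113 CPM with restriction and 780 ± 228 CPM with saline, with overlapping values and an adjusted p of 0.0555 (edgeR). It passed without calorie-restricted mouse 79 or without saline mouse 78. Plin2 also passed by DESeq2's Wald test and in a fit of these 2 groups alone. Mogat1, which makes diacylglycerol from monoacylglycerol, fell from 7.501 ± 2.67 to 1.01 ± 0.490 CPM (-2.91 ± 0.38, edgeR adjusted p = 0.00013). Pparg, the nuclear receptor that drives these genes in fat cells and fatty livers, measured 9.11, 17.0, 14.0 and 11.8 CPM against 44.2, 31.5, 33.2 and 25.9 CPM (-1.38 ± 0.21, edgeR adjusted p = 0.000592).

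Lipases that empty droplets fell along with the coat proteins. Pnpla2, which encodes the first triglyceride lipase ATGL, fell from 92.2 ± 9.09 to 40.8 ± 10.5 CPM (-1.18 ± 0.17, edgeR adjusted p = 0.000409), and Lipe, the hormone-sensitive lipase, from 28.0 ± 4.66 to 7.43 ± 0.486 CPM (-1.92 ± 0.20, edgeR adjusted p = 1.59e-05). In Semaglutide livers Pnpla2 was 78.2 ± 14.0 CPM and Plin3 52.2 ± 4.32 CPM, higher than with restriction (edgeR adjusted p = 0.00292 and 0.000356). Cidec was 2.64 ± 0.885 CPM with Semaglutide and the difference from restriction did not pass (log2 0.55, edgeR adjusted p = 0.572). The member that rose was Agpat2, an enzyme that makes phosphatidic acid (0.51 ± 0.12, edgeR adjusted p = 0.0182), a call that ended without saline mouse 35 (0.0717) or 73 (0.0516).

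**Figure D3:**
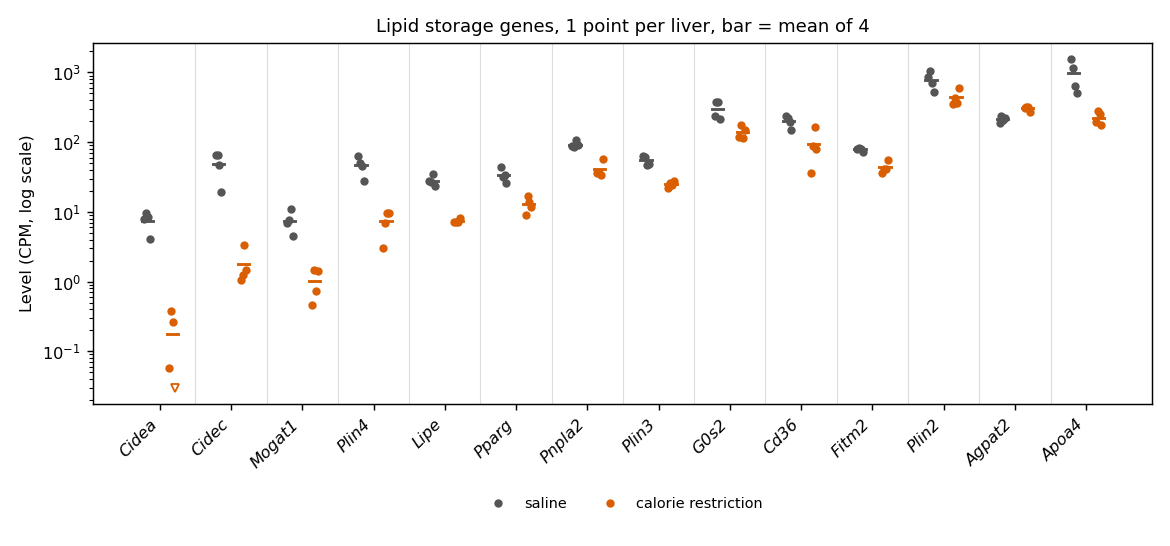
Vertical axis: level in CPM on a log scale; 1 point per liver, bar at the mean of 4, and an open triangle for the 1 liver with no Cidea count. Calorie-restricted livers (orange) are below saline livers (grey) without overlap from Cidea to G0s2, and Cd36 and Plin2 overlap between the groups.

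Targets of PPARα, the receptor that switches on fatty acid burning in fasting, were lower in part. Of 24 tested targets, 5 fell and none rose, beside 4.11% and 3.42% of all genes. The median was -0.29, and 6 targets had a positive difference. The 5 that fell became 1 without calorie-restricted mouse 7 or 8 or saline mouse 35, 50 or 73. By unadjusted p under 0.05, 9 were lower and 2 higher, and DESeq2's Wald test called 7 lower and none higher. Pex11a, which promotes peroxisome growth, fell from 212 ± 47.6 to 113 ± 24.0 CPM (-0.91 ± 0.20, edgeR adjusted p = 0.00836). Ppara itself was 66.2 ± 19.6 and 73.0 ± 11.1 CPM (edgeR adjusted p = 0.768). Fgf21, a fasting hormone and PPARα target, was 1.81, 1.53, 1.26 and 5.95 CPM with restriction and 5.85, 4.36, 3.81 and 0.414 CPM with saline (edgeR adjusted p = 0.698), so mouse 79 was the highest restricted and mouse 78 the lowest saline liver. Cyp4a14, a fatty acid hydroxylase and PPARα target, had a positive difference (1.46 ± 0.49) with overlapping groups that did not pass (edgeR adjusted p = 0.0824). The apolipoprotein gene Apoa4, made in fatty livers, fell from 967 ± 482 to 225 ± 45.3 CPM (-2.1 ± 0.34, edgeR adjusted p = 0.000976) and was 2292 CPM with Dicretin (edgeR adjusted p = 1.48e-06 against restriction).

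Chaperones of the endoplasmic reticulum rose together. Of 22 tested members of this list, 14 rose and none fell, and the median was 0.81. Without adjustment (p under 0.05) 16 were higher and 1 lower, and DESeq2's Wald test called 16 higher and none lower. The number that rose was 9 without calorie-restricted mouse 52 or saline mouse 50, and 10 to 14 when any other library was left out.

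Hspa5 (chr2:34771970-34777547), which encodes the central chaperone BiP, measured 1049, 940, 1426 and 660 CPM in calorie-restricted livers and 346, 403, 323 and 362 CPM in saline livers. Mouse 52 was highest and mouse 79 lowest in the restricted group, and each restricted liver was above every saline liver (1.51 ± 0.25, 2.84-fold, edgeR adjusted p = 0.00117). Hyou1, a BiP co-chaperone, measured 187, 145, 238 and 102 CPM against 37.8, 42.9, 29.5 and 41.4 CPM (2.15 ± 0.30, edgeR adjusted p = 0.000299). Its order of animals matched that of Hspa5.

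Dnajb11, another BiP partner, had a smaller increase with little spread, from 59.8 ± 4.26 to 142 ± 19.2 CPM (1.25 ± 0.14, edgeR adjusted p = 2.75e-05). Creld2, a disulfide isomerase, rose from 14.5 ± 2.29 to 49.6 ± 21.9 CPM (1.77 ± 0.36, edgeR adjusted p = 0.00608). Manf, a secreted stress-induced protein, rose from 29.4 ± 4.21 to 98.9 ± 31.0 CPM (1.75 ± 0.32, edgeR adjusted p = 0.00246). The abundant lumenal chaperones Hsp90b1 (0.84 ± 0.16, edgeR adjusted p = 0.00376) and Calr (0.79 ± 0.19, edgeR adjusted p = 0.0166) rose by less, and Calr did not pass without saline mouse 50 (0.0564). Xbp1, a transcription factor of the unfolded protein response, was 157 and 170 CPM (edgeR adjusted p = 0.776), and Herpud1, which acts in the degradation of misfolded proteins, was 317 and 444 CPM (edgeR adjusted p = 0.192). In Semaglutide livers Hspa5 was 658 ± 144 CPM, and its difference from restriction did not pass (-0.63, edgeR adjusted p = 0.13). Of the 22 chaperones 2 differed between Semaglutide and restriction, beside 6.12% of all genes.

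A sequence shared by many of these genes is the ER stress response element, searched on either strand as CCAAT and CCACG with 9 bases of any kind between them. It was in 39 of the 32851 RefSeq promoter windows (0.119%). Genes were again counted over all their windows, unlike that share. Of 12 chaperone genes that rose and had a window, 7 held it, and of 6 that did not pass and had a window, Derl3 held it. Hyou1, Manf and Dnajb11, which also rose, were not among the genes with a match. As with the E-box, a match shows no binding. The 30 bases around each match are shown in the direction of the element, with its letters in capitals.
Hspa5, chr2:34772020-34772049, plus strand: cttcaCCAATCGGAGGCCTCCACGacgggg
Hsp90b1, chr10:86705632-86705661, minus strand: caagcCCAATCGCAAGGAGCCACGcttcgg
Hsp90b1, chr10:86705528-86705557, plus strand: actcaCCAATCGTGCCTCACCACGcactct
Calr, chr8:84847070-84847099, plus strand: atgggCCAATGAGGGTCGACCACGcgttgt
Canx, chr11:50325794-50325823, minus strand: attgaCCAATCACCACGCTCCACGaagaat
Pdia6, chr12:17266486-17266515, plus strand: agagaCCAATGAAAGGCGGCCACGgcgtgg
Dnajc3, chr14:118937822-118937851, plus strand: cacaaCCAATCAGCGCCAACCACGacccgg
Creld2, chr15:88819514-88819543, minus strand: gtggaCCAATTGAGGCTCGCCACGagaagc
Derl3, chr10:75893236-75893265, minus strand: gctagCCAATGGGGAAGTCCCACGgtagag
The window of Hsp90b1 held the element in either direction. Derl3, which helps export misfolded proteins, was low, at 4.04 CPM with restriction and 1.94 CPM with saline (edgeR adjusted p = 0.316). The full stretch of 250 bases before the start of Creld2 is shown with the element in capitals, here on the gene's strand, where it reads in the reverse direction.
Creld2, chr15:88819396-88819645, plus strand: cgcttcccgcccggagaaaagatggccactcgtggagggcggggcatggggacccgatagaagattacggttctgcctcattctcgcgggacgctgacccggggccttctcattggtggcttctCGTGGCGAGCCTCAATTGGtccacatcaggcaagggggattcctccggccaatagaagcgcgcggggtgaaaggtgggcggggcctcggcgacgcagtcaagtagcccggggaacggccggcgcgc

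Cytosolic chaperones rose in part. Of 17 tested members, 6 rose and 1 fell, with a median of 0.28. Hsp90aa1, the inducible cytosolic HSP90, measured 488, 554, 495 and 254 CPM in calorie-restricted livers and 191, 194, 161 and 154 CPM in saline livers, with mouse 79 closest to the saline group (1.36 ± 0.20, edgeR adjusted p = 0.000547). Its co-chaperones Fkbp4 (0.90 ± 0.13, edgeR adjusted p = 0.000326) and Stip1 (1.01 ± 0.15, edgeR adjusted p = 0.000467) rose, as did Hsph1 of the same list (1.21 ± 0.21, edgeR adjusted p = 0.00182). Hsp90aa1 and Fkbp4 were lower with Semaglutide than with restriction (188 ± 31.5 CPM, edgeR adjusted p = 0.00126, and 205 ± 25.4 CPM, edgeR adjusted p = 0.00595). Hspa1a, the heat-inducible HSP70 gene, was at or under 0.787 CPM in all 8 livers and is not read further.

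The integrated stress response, which raises amino acid genes through the factor ATF4, did not move as a block. Of 21 tested members, 1 rose and 4 fell, and 2 fell without calorie-restricted mouse 7 or 52 or saline mouse 73. Atf4 rose from 72.0 ± 6.999 to 115 ± 15.9 CPM (0.67 ± 0.15, edgeR adjusted p = 0.0106). Its known targets Chac1, which degrades glutathione, and Eif4ebp1, a brake on translation, fell by 2.34 ± 0.47 (edgeR adjusted p = 0.00527) and 0.96 ± 0.17 (edgeR adjusted p = 0.00193) on the log2 scale. The stress hormone gene Gdf15 was 2.28, 1.83, 2.20 and 7.68 CPM with restriction and 10.6, 3.26, 9.66 and 4.55 CPM with saline. The groups overlapped through mouse 79 (edgeR adjusted p = 0.187), and Gdf15 passed when that mouse was left out.

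**Figure D4:**
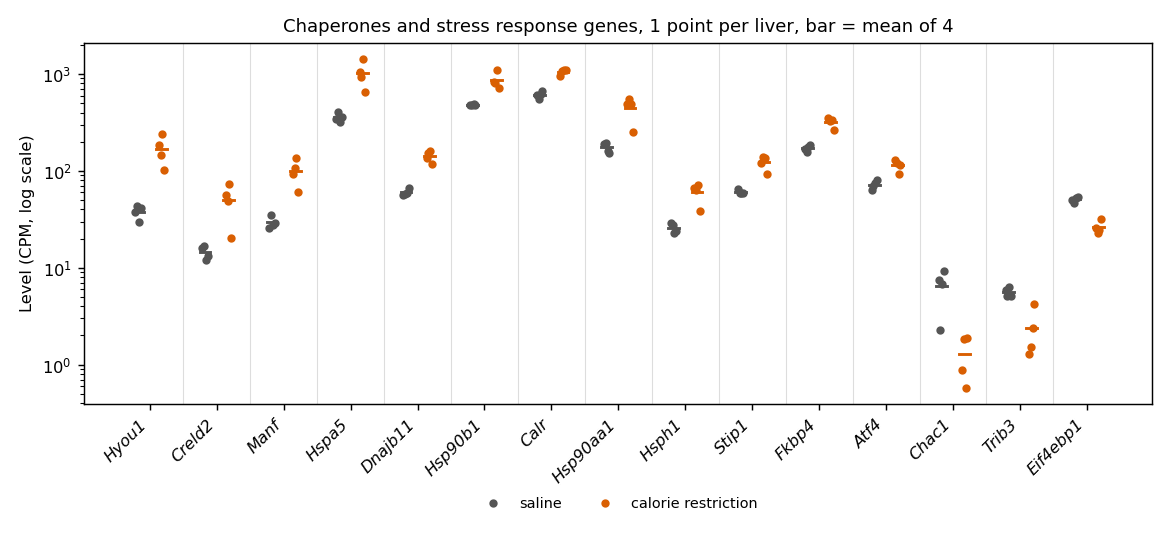
Vertical axis: level in CPM on a log scale; 1 point per liver, bar at the mean of 4. From Hyou1 to Atf4 the calorie-restricted livers (orange) are above every saline liver (grey), and Chac1, Trib3 and Eif4ebp1 are below.

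Genes of cholesterol synthesis and uptake leaned upward. Of 25 tested members, 3 rose and none fell, the 25 differences were positive, and the median was 0.56. Before adjustment (p under 0.05) 12 were higher and 0 lower, and DESeq2's Wald test called 5 higher. Insig1, which restrains sterol synthesis and is itself a target of the sterol factor SREBP2, rose from 149 ± 3.36 to 374 ± 108 CPM (1.33 ± 0.25, edgeR adjusted p = 0.00341).

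Calorie-restricted mouse 79 was highest for other sterol genes. Hmgcs1, an early enzyme of the pathway, was 784 CPM in calorie-restricted mouse 79 and 193 to 218 CPM in the other restricted livers, beside 128 to 222 CPM in saline livers (edgeR adjusted p = 0.155). Sqle, a later enzyme of the pathway, was 112 CPM in mouse 79 and 28.7, 26.1 and 5.60 CPM in mice 7, 8 and 52, beside 8.02 to 21.1 CPM in saline livers (edgeR adjusted p = 0.178). Srebf2, which encodes SREBP2, was 73.0 CPM in mouse 79 and 40.2 to 42.4 CPM in the other restricted livers, beside 25.6 to 34.0 CPM in saline livers, without overlap (0.68 ± 0.23, edgeR adjusted p = 0.0704). It passed by DESeq2's Wald test (0.0355), with the gene length correction (0.023) and in a fit of these 2 groups alone (0.0192).

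Fatty acid synthesis genes showed wide spread. Of 22 tested, 2 rose. Elovl3, a fatty acid elongase that also cycles daily, measured 240, 273, 210 and 454 CPM with restriction and 37.3, 43.8, 41.4 and 42.6 CPM with saline, without overlap (2.83 ± 0.62, edgeR adjusted p = 0.0119). In Semaglutide livers it was 45.1 ± 38.0 CPM (edgeR adjusted p = 0.018 against restriction, lost without Semaglutide mouse 11 at 0.085). Pitx3, a transcription factor gene whose annotation overlaps Elovl3 on chromosome 19, rose from 0.247 ± 0.186 to 3.02 ± 2.65 CPM (3.58 ± 0.72, edgeR adjusted p = 0.00536). The strand setting of the counting is not given in the sources used here, and reads of Pitx3 and Elovl3 may not have been told apart. Acly, which makes cytosolic acetyl-CoA, was called (1.41 ± 0.38, edgeR adjusted p = 0.0314), but not without calorie-restricted mouse 7 or 8 or saline mouse 35, 73 or 78 (0.0517 to 0.128). Fasn, fatty acid synthase, was 446 ± 271 and 236 ± 126 CPM (edgeR adjusted p = 0.621), and Scd1, the main desaturase, was 4407 ± 2734 and 4960 ± 2729 CPM (edgeR adjusted p = 0.939). Both genes spread widely within either group, and the log2 differences carried standard errors of 0.97 for Fasn and 0.94 for Scd1. Srebf1, which encodes their activator, was 379 ± 73.0 and 320 ± 24.5 CPM (edgeR adjusted p = 0.712).

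Metallothioneins, small proteins that bind zinc and copper and are induced by metals and glucocorticoids, were among the genes that fell furthest. Mt1 (chr8:94179082-94180327) measured 1.81, 4.43, 6.33 and 4.68 CPM with restriction and 173, 159, 230 and 185 CPM with saline (-5.43 ± 0.34, 43.1-fold, edgeR adjusted p = 2.2e-08). Mt2, its neighbour at chr8:94172664-94173568, measured 0.701, 2.29, 2.30 and 0.868 CPM against 102, 65.3, 118 and 99.8 CPM (-5.96 ± 0.38, 62.3-fold, edgeR adjusted p = 2.2e-08). Mouse 7 was lowest for both genes, and the highest restricted liver was far below the lowest saline liver. Semaglutide livers had 21.7 ± 8.01 CPM of Mt1, above restriction (2.33, edgeR adjusted p = 0.000182), and Dicretin livers 619 CPM (edgeR adjusted p = 3.91e-10 against restriction). Slc30a10, a metal exporter that removes manganese, rose from 9.99 ± 2.46 to 47.6 ± 8.82 CPM (2.25 ± 0.37, edgeR adjusted p = 0.00116), while the 6 other tested members of the metallothionein and zinc transport list did not pass.

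Glucocorticoid-responsive genes did not share a direction. Of 20 tested, 2 rose and 4 fell, with a median of 0.12, and 1 rose when any library but that of calorie-restricted mouse 79 was left out. Beside Mt1 and Mt2, Fkbp5, a direct glucocorticoid receptor target, fell from 45.3 ± 10.5 to 19.7 ± 4.76 CPM (-1.20 ± 0.27, edgeR adjusted p = 0.00965). Tat, tyrosine aminotransferase, rose from 528 ± 126 to 1192 ± 282 CPM (1.18 ± 0.24, edgeR adjusted p = 0.00572). The other member that rose, Tsc22d3, went from 72.4 ± 12.1 to 146 ± 35.0 CPM (1.01 ± 0.28, edgeR adjusted p = 0.0344). Its call was lost in 7 of the 8 fits without 1 library (0.0517 to 0.107). In iron handling, Tfrc, the transferrin receptor gene, measured 77.6, 75.1, 76.4 and 36.4 CPM with restriction and 15.3, 19.7, 13.2 and 15.0 CPM with saline. Mouse 79 was lowest in its group, still above each saline liver (2.07 ± 0.25, edgeR adjusted p = 5.3e-05). Semaglutide livers had 10.2 ± 2.37 CPM of Tfrc (edgeR adjusted p = 8.04e-06 against restriction).

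**Figure D5:**
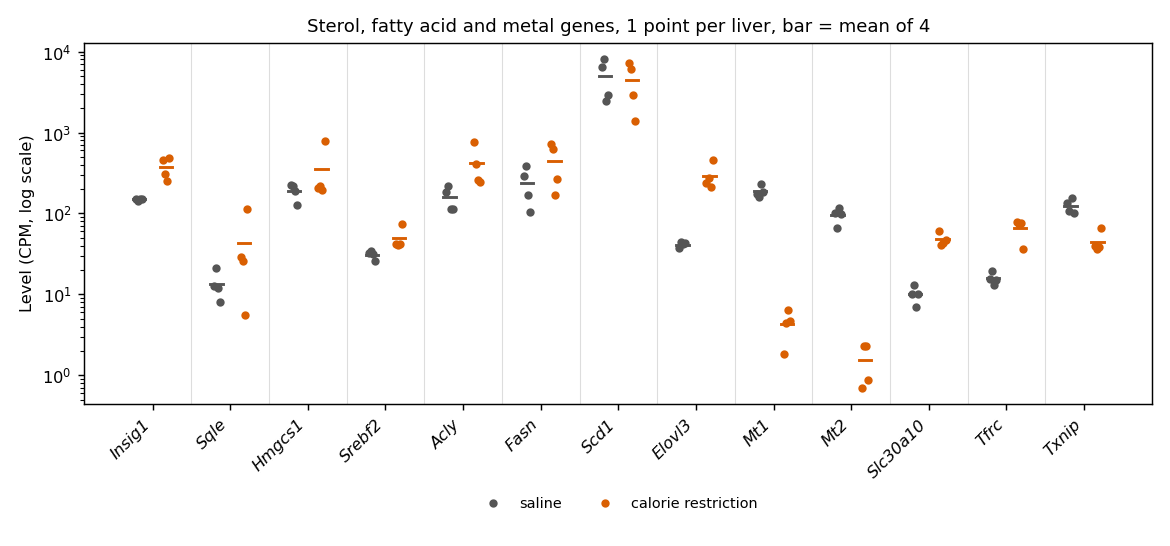
Vertical axis: level in CPM on a log scale; 1 point per liver, bar at the mean of 4. Calorie-restricted livers (orange) are separate from saline livers (grey) for Insig1, Elovl3, Mt1, Mt2, Slc30a10 and Tfrc, while Sqle and Hmgcs1 have 1 high restricted liver and Scd1 overlaps.

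In carbohydrate metabolism, glycogen-targeting subunits of protein phosphatase 1, which bring the phosphatase to glycogen and favour its synthesis, changed in both directions. Ppp1r3c measured 111, 64.5, 198 and 194 CPM with restriction and 17.3, 30.6, 18.6 and 31.0 CPM with saline (2.54 ± 0.31, edgeR adjusted p = 5.98e-05). Ppp1r3b, the main liver form, measured 543, 461, 498 and 433 CPM against 186, 241, 200 and 216 CPM (1.20 ± 0.23, edgeR adjusted p = 0.00391). Neither Ppp1r3c nor Ppp1r3b overlapped between groups. They were lower with Semaglutide than with restriction, Ppp1r3b at 105 ± 41.4 CPM (-2.20, edgeR adjusted p = 2.51e-05) and Ppp1r3c at 49.3 ± 8.95 CPM (-1.52, edgeR adjusted p = 0.00481). Another subunit gene, Ppp1r3g, was called lower (0.330 ± 0.377 against 2.73 ± 1.71 CPM, -3.04 ± 0.79, edgeR adjusted p = 0.0261), with overlapping groups. Its call ended without calorie-restricted mouse 7, 8 or 52 or saline mouse 35, 50 or 73 (0.0551 to 0.0778). Of the 21 tested genes of glycolysis, fructose use and glycogen, 2 rose and 2 fell, beside 3.42% and 4.11% of all genes. None of the 21 fell without calorie-restricted mouse 7 or 52 or saline mouse 35, 50 or 73.

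Few gluconeogenesis genes passed: of 20 tested, 2 rose and none fell. At an unadjusted p under 0.05, 4 were higher and 4 lower, and DESeq2's Wald test called 3 higher and 1 lower. Pck1, the gene of the first committed enzyme, was 2035 ± 254 CPM with restriction and 2027 ± 615 CPM with saline (0.01 ± 0.22, edgeR adjusted p = 0.991). G6pc, which releases free glucose, was called (1.06 ± 0.27, edgeR adjusted p = 0.0206) with overlapping groups, and not without calorie-restricted mouse 7 or saline mouse 35 or 73 (0.0708 to 0.0764). Txnip, an inhibitor of glucose uptake that is induced by glucose, fell from 125 ± 25.0 to 44.9 ± 13.9 CPM (-1.47 ± 0.28, edgeR adjusted p = 0.00363). Igfbp1, which insulin represses, was 21.8, 25.1, 26.5 and 57.1 CPM against 18.9, 10.9, 15.9 and 20.6 CPM. Its groups did not overlap, but the difference missed the threshold (0.98 ± 0.33, edgeR adjusted p = 0.0778). It passed by DESeq2's Wald test and with the gene length correction. The insulin receptor substrate gene Irs2 (0.78 ± 0.59, edgeR adjusted p = 0.466) and the coactivator Ppargc1a (0.35 ± 0.15, edgeR adjusted p = 0.174) did not pass. Irs1, another substrate gene, was called higher (1.39 ± 0.42, edgeR adjusted p = 0.0485), but lost its call without any 1 of the 8 libraries (0.0538 to 0.124). Of 22 tested insulin signalling genes, 3 rose and 2 fell, beside 3.42% and 4.11% of all genes, and 17 had a positive difference.

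A few genes of nitrogen disposal rose. Of 33 tested genes of the urea cycle and amino acid breakdown, 4 rose and none fell, beside 3.42% and 4.11% of all genes. Their median was -0.03, with 16 positive and 17 negative differences. By unadjusted p under 0.05, 6 were higher and 3 lower, and DESeq2's Wald test called 4 higher and none lower. Cps1, which fixes ammonia, rose from 2003 ± 379 to 3592 ± 517 CPM (0.84 ± 0.17, edgeR adjusted p = 0.00488). Nags, which makes the activator of CPS1, rose from 50.2 ± 3.12 to 79.2 ± 3.96 CPM (0.66 ± 0.11, edgeR adjusted p = 0.00101). Slc25a15, the mitochondrial ornithine carrier, measured 363, 369, 358 and 345 CPM against 176, 170, 183 and 217 CPM (0.94 ± 0.14, edgeR adjusted p = 0.000365). The fourth was Tat. These 4 kept their calls without any 1 library. Dicretin livers had 1223 CPM of Slc25a15 (edgeR adjusted p = 5.32e-08 against restriction).

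Of 24 tested genes of liver-secreted hormones, 4 rose and none fell. At an unadjusted p under 0.05, 6 were higher and 2 lower, and DESeq2's Wald test called 5 higher and none lower. Inhbc, which encodes an activin chain made in liver, measured 132, 149, 134 and 139 CPM with restriction and 42.9, 45.3, 55.7 and 46.7 CPM with saline (1.54 ± 0.17, edgeR adjusted p = 2.33e-05). Inhba, another activin chain, rose from 2.095 ± 0.675 to 7.71 ± 2.62 CPM (1.87 ± 0.35, edgeR adjusted p = 0.0027). Angptl8, an inhibitor of lipoprotein lipase that feeding induces, rose from 28.2 ± 9.76 to 76.3 ± 25.2 CPM (1.44 ± 0.26, edgeR adjusted p = 0.00257). Enho, which encodes adropin, was called (1.63 ± 0.39, edgeR adjusted p = 0.0148), but not without calorie-restricted mouse 79 or saline mouse 35 or 50 (0.0559 to 0.064). Igf1, the main growth signal of liver, was 614 ± 85.6 and 553 ± 70.1 CPM (edgeR adjusted p = 0.718) and the growth hormone receptor Ghr 683 ± 50.4 and 651 ± 31.6 CPM (edgeR adjusted p = 0.809). None of the 14 tested genes of growth hormone signalling passed in edgeR; 1 was higher and 1 lower at an unadjusted p under 0.05, and DESeq2's Wald test called 1 lower. Gcgr, the glucagon receptor gene, was 194 ± 14.5 and 225 ± 12.3 CPM (-0.22 ± 0.15, edgeR adjusted p = 0.431). Glp1r, the receptor of Semaglutide, had 3 counts over the restricted libraries and 0 over the saline libraries and was not tested.

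Avpr1a, the vasopressin receptor of hepatocytes, had one of the largest increases, at 40.1, 33.8, 48.0 and 67.4 CPM against 3.09, 4.59, 5.31 and 6.12 CPM (3.32 ± 0.30, 9.97-fold, edgeR adjusted p = 3.67e-06). Chka, choline kinase of phosphatidylcholine synthesis, measured 40.5, 34.7, 44.0 and 72.2 CPM against 11.3, 9.54, 11.2 and 10.3 CPM (2.17 ± 0.25, edgeR adjusted p = 3.74e-05). Mouse 79 was highest in either gene. Fam222a (3.65 ± 0.46, edgeR adjusted p = 0.0001) and Atp2b2, a plasma membrane calcium pump (2.54 ± 0.52, edgeR adjusted p = 0.00604), rose from low levels under 1 CPM in saline livers. Among the largest decreases, Krt23, a keratin of stressed hepatocytes, fell from 20.95 ± 4.96 to 1.34 ± 0.586 CPM (-3.96 ± 0.33, edgeR adjusted p = 1.34e-06) and Ubd, an inflammation-induced ubiquitin-like gene, fell from 5.37 ± 3.003 to 0.491 ± 0.233 CPM (-3.41 ± 0.53, edgeR adjusted p = 0.000624).

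Genes that differ between male and female livers, which follow the pulses of growth hormone, did not move as a block: of 24 male-biased genes tested 3 rose and 2 fell, and of 13 female-biased genes 1 rose and 1 fell. Over all genes 3.42% rose and 4.11% fell. No male-biased gene fell without calorie-restricted mouse 52 or 79 or saline mouse 50 or 78, and no female-biased gene fell without calorie-restricted mouse 79 or saline mouse 35. The organic anion carrier Slco1a1 measured 394, 247, 198 and 216 CPM with restriction and 39.1, 82.9, 19.3 and 74.1 CPM with saline (2.29 ± 0.38, edgeR adjusted p = 0.00132). Hsd3b5, a male-biased steroid reductase, measured 112, 85.3, 8.64 and 26.7 CPM against 0.843, 3.61, 0.136 and 7.69 CPM (4.29 ± 0.84, edgeR adjusted p = 0.0072), and it was not called in a fit of these 2 groups alone (0.0502). The pheromone carrier Mup17 (-3.77 ± 1.0, edgeR adjusted p = 0.0379) was called, but not without calorie-restricted mouse 7, 52 or 79 or saline mouse 50 or 78 (0.0778 to 0.106). Hsd3b5 and the Mup genes have near-identical copies between which reads may have been split, so their single values are uncertain. Mup18 (-5.21 ± 1.24, edgeR adjusted p = 0.0206) was set by saline mouse 50, at 64.8 CPM beside 2.25 to 8.02 CPM in the other saline livers, and its call ended without that mouse or without calorie-restricted mouse 7, 52 or 79 (0.0607 to 0.0783).

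Of 26 tested bile acid genes, 2 rose and 1 fell, beside 3.42% and 4.11% of all genes. Fgfr4, the hepatocyte receptor for the intestinal bile acid signal FGF15, rose from 22.4 ± 2.12 to 47.7 ± 6.60 CPM (1.09 ± 0.19, edgeR adjusted p = 0.00166). Cyp7a1, whose product commits cholesterol to bile acids, was 186, 363, 278 and 84.0 CPM with restriction and 109, 113, 157 and 101 CPM with saline, with overlap (edgeR adjusted p = 0.394). Cyp8b1, which sets the mix of bile acids, was 311 ± 153 and 353 ± 123 CPM (edgeR adjusted p = 0.856). Por, which supplies electrons to all microsomal P450 enzymes and cycles with the clock, fell from 638 ± 98.1 to 326 ± 46.8 CPM (-0.97 ± 0.19, edgeR adjusted p = 0.00436). Of 28 tested genes of xenobiotic metabolism 2 rose and 3 fell, beside the same shares of all genes. Gstm2, a glutathione transferase, was among those that fell (-1.09 ± 0.22, edgeR adjusted p = 0.00503).

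Acute-phase genes, which hepatocytes switch on under inflammatory cytokines, were lower in part. Of 24 tested members, 6 fell and 1 rose, beside 4.11% and 3.42% of all genes, with a median of -0.40. Whichever 1 library was left out, 6 fell. Saa2, serum amyloid A2, measured 5.61, 20.6, 19.2 and 9.29 CPM with restriction and 160, 122, 67.7 and 68.2 CPM with saline (-2.94 ± 0.52, edgeR adjusted p = 0.00302). Orm3, an orosomucoid, measured 1.34, 3.59, 2.25 and 0.134 CPM against 17.7, 17.3, 20.1 and 18.4 CPM (-3.34 ± 0.51, edgeR adjusted p = 0.000625). Neither overlapped, and mouse 7 had the lowest Saa2 and mouse 79 the lowest Orm3. Il1rn, the interleukin-1 receptor antagonist, fell from 7.27 ± 1.68 to 1.05 ± 0.399 CPM (-2.76 ± 0.32, edgeR adjusted p = 3.74e-05), Lcn2, lipocalin 2, from 31.7 ± 13.2 to 4.92 ± 3.35 CPM (-2.69 ± 0.58, edgeR adjusted p = 0.00989), and Orm2 from 38.7 ± 8.12 to 8.56 ± 2.97 CPM (-2.17 ± 0.30, edgeR adjusted p = 0.000199). Saa1 and Saa2, and the Orm genes, are near-identical neighbours whose reads may have been shared. The member that rose, Crp (0.53 ± 0.16, edgeR adjusted p = 0.0442), lost its call without any 1 of the 8 libraries (0.0506 to 0.121).

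Markers of liver macrophages were lower on balance, and few passed. All 14 tested Kupffer cell markers had a negative difference, with a median of -1.06, and 2 passed; 8 were lower at an unadjusted p under 0.05, and DESeq2's Wald test called 7 lower. Their summed level was 186.3 to 492.5 CPM in calorie-restricted and 424.3 to 631.8 CPM in saline livers, so that the groups overlapped. Clec4f, the defining marker, was 48.1, 16.4, 37.0 and 23.7 CPM against 45.5, 67.9, 71.9 and 76.0 CPM, with mouse 7 above saline mouse 35 (-1.06 ± 0.40, edgeR adjusted p = 0.114). It passed by DESeq2's Wald test (adjusted p = 0.0469). The 2 that passed in edgeR were Csf1r (-1.17 ± 0.31, edgeR adjusted p = 0.0269) and C1qb (-1.13 ± 0.34, edgeR adjusted p = 0.0466). Neither call held without calorie-restricted mouse 8 or 79 or any 1 saline mouse (0.0546 to 0.0859 and 0.0792 to 0.125). C1qb also lost its call without calorie-restricted mouse 7. Trem2, a marker of lipid-associated macrophages, was 0.467 ± 0.173 and 1.68 ± 1.20 CPM (edgeR adjusted p = 0.115). It passed in a fit of these 2 groups alone. In edgeR's fit of all 4 groups none of that list's 16 tested members passed, with 4 lower at an unadjusted p under 0.05. DESeq2's Wald test called 1 lower. Sinusoidal endothelial markers had a median of -0.03 and stellate cell markers of -0.08, with none of 14 passed in either list by edgeR or DESeq2's Wald test. At an unadjusted p under 0.05, 1 endothelial marker was higher and 3 stellate markers lower.

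Some antigen presentation genes were lower too. Of 17 tested antigen presentation genes, 3 fell, 16 had a negative difference, and the median was -0.45. The count was 1 without saline mouse 35, 6 by DESeq2's Wald test and 9 in a fit of these 2 groups alone. Tap1, a peptide transporter, fell from 34.9 ± 4.95 to 17.3 ± 2.53 CPM (-1.01 ± 0.17, edgeR adjusted p = 0.00148), and Cd74, the class II invariant chain, from 94.4 ± 24.0 to 46.6 ± 10.9 CPM (-1.02 ± 0.23, edgeR adjusted p = 0.0112; 0.0558 without saline mouse 35). The third, H2-DMa, a gene of class II peptide loading, fell from 5.05 ± 0.6999 to 2.13 ± 0.445 CPM (-1.24 ± 0.30, edgeR adjusted p = 0.0177), and lost its call without calorie-restricted mouse 7 or saline mouse 35 or 73 (0.0523 to 0.065). The part of the macrophage markers, whose sums are given above, in these differences was not tested. Of 22 tested chemokine and adhesion genes, 3 fell, 21 had a negative difference, and the median was -0.905. At an unadjusted p under 0.05, 8 were lower, and DESeq2's Wald test called 7 lower. None of the 22 fell without calorie-restricted mouse 7 or saline mouse 35 or 73. Without calorie-restricted mouse 8 or 52 or saline mouse 50, 1 did. The 1 that rose was the chemokine Cxcl12, made by stromal and endothelial cells, from 283 ± 21.1 to 511 ± 24.3 CPM (0.85 ± 0.17, edgeR adjusted p = 0.00413). In the matrix and fibrosis list 1 of 28 passed: Mmp14, a membrane metalloproteinase, rose from 24.3 ± 2.68 to 44.3 ± 6.23 CPM (0.87 ± 0.16, edgeR adjusted p = 0.00309). The list leaned the other way, with 23 negative and 5 positive differences and a median of -0.445. At an unadjusted p under 0.05, 9 of its members were lower and 1 was higher. Col1a1, the main fibrillar collagen, was 4.29 ± 0.951 CPM with restriction and 21.9, 25.8, 10.2 and 4.38 CPM with saline (edgeR adjusted p = 0.106).

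A T cell gene and a fat cell gene fell, while the other markers of those cells named here were low in both groups. Themis, a signalling gene of developing T cells, measured 0.701, 3.21, 2.41 and 0.200 CPM with restriction and 39.5, 42.6, 30.6 and 23.0 CPM with saline (-4.39 ± 0.46, 20.9-fold, edgeR adjusted p = 1.56e-05). The T cell receptor complex genes were low in either group, with Cd3d at 0.314 and 0.428 CPM and Cd3g at 0.696 and 0.817 CPM. Cfd, which encodes adipsin, the complement factor D of fat cells, measured 0, 0.0764, 1.31 and 0.534 CPM against 12.9, 39.0, 45.4 and 22.2 CPM (-5.84 ± 0.83, edgeR adjusted p = 0.000547). The fat cell genes Adipoq and Lep had 10 and 6 counts over the 4 restricted libraries and 7 and 10 over the 4 saline libraries. A4gnt, a glycosyltransferase gene, fell from 2.104 ± 1.26 CPM to 0.0584 and 0.0764 CPM in mice 7 and 8 and no count in mice 52 and 79 (edgeR adjusted p = 0.000508), too low for a fold change.

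None of 32 tested genes of nuclear-encoded oxidative phosphorylation passed, at an unadjusted p under 0.05 or by DESeq2's Wald test either, and their median was -0.05. With the gene length correction, and in a fit of these 2 groups alone, 1 of them rose. Of 34 cytosolic ribosomal protein genes, 33 had a positive difference with a median of 0.28; none passed in edgeR or by DESeq2's Wald test, and 5 were higher at an unadjusted p under 0.05. With the gene length correction 15 of the 34 rose, and in a fit of these 2 groups alone 14 did. Of 31 tested autophagy and lysosome genes, 6 fell and none rose, and 3 fell without calorie-restricted mouse 7 or 8 or saline mouse 35 or 50. Before adjustment (p under 0.05) 9 were lower and 0 higher, and DESeq2's Wald test called 7 lower. Gabarapl1, which helps form autophagosomes, fell from 381 ± 31.7 to 201 ± 74.1 CPM (-0.92 ± 0.20, edgeR adjusted p = 0.00989). Ctss, a lysosomal protease, fell from 44.1 ± 3.06 to 16.9 ± 6.25 CPM (-1.38 ± 0.31, edgeR adjusted p = 0.0101). In restricted livers its order of animals matched that of the macrophage markers C1qb and Csf1r, and in saline livers it did not. The part of macrophages in its fall was not tested.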

How the data were processed

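Polyadenylated RNA of 16 mouse livers, 1 library per animal, was measured by RNA-seq. The authors deposited a table of raw counts per gene, made with TopHat2 2.1.1 and featureCounts on mm10, per the submitters' processing notes; the strand setting and annotation release are not given in the sources used here. The table holds 46078 genes, of which 22577 have no count, and its mitochondrial genes are at 0. No 2 libraries were identical. Groups came from the sample titles.

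Low genes were removed with filterByExpr, leaving 12910. Counts were scaled by TMM and fitted with edgeR 4.0.16 (R 4.3.3), robust quasi-likelihood, 1 mean per group over the 16 libraries. P-values were Benjamini-Hochberg adjusted over all tested genes, with a threshold of 0.05. Standard errors were derived from each fold change and its F statistic. CPM values use the scaled library sizes. The script was tested on simulated data. Alternatives used DESeq2 1.42.0, limma 3.58.1, other scaling and filters, and each library left out.

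Named genes were the 15 largest increases and 15 largest decreases with at least 2 CPM and no overlap, up to 5 members per described list by p, and a panel of 33 genes; others, among them the Per genes, Xbp1, Herpud1, Derl3, Sqle, Hmgcs1, Cyp4a14 and Col1a1, were named after their values were seen. Some results are not reported here. The members and lists were chosen with earlier results of these data known. Promoters are from RefSeq (GRCm38.p6) and gene positions from GENCODE (GRCm38).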

Additional observations from a re-analysis of the deposited data

Results flagged for a closer look

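In each group of 4, a library was singled out where its gap to the nearest other library relative to the group's range exceeded Dixon's critical value for 4 samples. Over 298 groups of 149 genes, 21 were singled out. In independent groups of normally distributed values chance gives about 1 in 20, or 14.9. These genes were chosen in part by their values, so the 21 cannot be judged against that figure. Calorie-restricted mouse 79 accounts for 11 of them.

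Mouse 79 was above the other restricted livers for Hmgcs1 (783.9 against 193.3 to 218.1 CPM), Srebf2 (73.01 against 40.18 to 42.4 CPM), Gdf15 (7.682 against 1.833 to 2.278 CPM) and Fgf21 (5.945 against 1.256 to 1.81 CPM). It was also above them for Igfbp1 (57.05 against 21.78 to 26.48 CPM), Txnip (65.6 against 36.05 to 39.83 CPM) and Pnpla2 (56.51 against 34.23 to 36.32 CPM). The same held for Lipe (8.15 against 7.125 to 7.256 CPM) and Pitx3 (6.947 against 1.375 to 2.219 CPM). It was below them for Tfrc (36.41 against 75.08 to 77.55 CPM) and Nr1d2 (23.38 against 41.17 to 44.65 CPM).

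Saline mouse 78 was low for Clock (13.65 against 16.81 to 17.42 CPM), Per2 (27.29 against 30.76 to 31.03 CPM), Cyp8b1 (168.8 against 396.8 to 434.0 CPM) and the steroid hydroxylase gene Cyp2a4 (5.459 against 15.53 to 16.47 CPM). Saline mouse 73 was high for Ciart (22.66 against 13.15 to 14.72 CPM), saline mouse 50 for Mup18 (64.78 against 2.248 to 8.023 CPM) and saline mouse 35 for Ddc, an amino acid decarboxylase gene (32.99 against 26.2 to 26.69 CPM). Calorie-restricted mouse 8 was high for Mup17 (54.38 against 6.657 to 13.56 CPM) and for Upp2, a uridine phosphorylase gene (231.0 against 127.6 to 143.9 CPM), and calorie-restricted mouse 52 for Ubd (0.8375 against 0.334 to 0.4088 CPM).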

How the results depend on the processing

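For calorie restriction against saline, 972 genes passed. DESeq2's Wald test called 1528 and a fit of these 2 groups alone 2569, while leaving out 1 library gave 502 to 849. For Semaglutide against calorie restriction, 790 became 1291 with DESeq2's Wald test and 445 to 963 without 1 library. With upper-quartile scaling 389 genes were higher and 620 lower, and with a gene length correction 800 and 528, against 442 and 530. The causes were not tested.

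Of 149 genes examined singly 119 were called; 88 of these kept their call under every alternative run, 31 lost it under at least 1, and none changed sign. Genes that were not called changed sign as follows. Per2 was -0.032 with upper-quartile scaling and -0.141 with limma-voom, and -0.278 to 0.248 without 1 library. Pck1 was -0.031 with upper-quartile scaling and -0.146 to 0.206 without 1 library. Without 1 library, Scd1 ranged from -0.518 to 0.182, Cyp8b1 from -0.515 to 0.072 and Per1 from -0.322 to 0.

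No paired analysis was possible because the groups share no animal number. Intervals and p-values reflect 4 animals per group.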

Other observations

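Other genes, chosen after their values were seen, separated the groups. The tubulin genes Tuba4a, Tubb2a and Tubb4b rose, Tuba4a from 76.7 ± 9.57 to 243 ± 33.5 CPM (SD, n = 4; 1.66 ± 0.17, edgeR adjusted p = 1.09e-05). Tubb2a measured 91.9, 90.2, 128 and 147 CPM in calorie-restricted mice 7, 8, 52 and 79 and 51.8, 43.4, 17.0 and 12.6 CPM in saline mice 35, 50, 73 and 78 (1.87 ± 0.34, edgeR adjusted p = 0.0026). Ddc, which makes amines from amino acids, rose from 28.1 ± 3.26 to 76.9 ± 7.46 CPM (1.45 ± 0.15, edgeR adjusted p = 1.09e-05), and was 16.5 ± 3.50 CPM with Semaglutide (edgeR adjusted p = 1.95e-07 against restriction). Clpx, a mitochondrial protease subunit, measured 168, 164, 284 and 503 CPM against 86.4, 85.6, 75.5 and 89.0 CPM (1.73 ± 0.27, edgeR adjusted p = 0.000621).

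Gpcpd1, which acts in choline release, fell from 170 ± 20.3 to 27.0 ± 5.95 CPM (-2.65 ± 0.24, edgeR adjusted p = 3.67e-06) and was 125 ± 28.9 CPM with Semaglutide. Slc5a6, a vitamin carrier, fell from 20.5 ± 4.503 to 4.27 ± 0.631 CPM (-2.26 ± 0.21, edgeR adjusted p = 4.1e-06), and Upp2 from 712 ± 138 to 158 ± 49.5 CPM (-2.17 ± 0.33, edgeR adjusted p = 0.000547). Lgals1, which encodes galectin-1, fell from 105 ± 20.2 to 22.7 ± 9.22 CPM (-2.22 ± 0.28, edgeR adjusted p = 0.0001), Osbpl3, a lipid-binding protein gene, from 36.8 ± 9.74 to 5.26 ± 2.01 CPM (-2.81 ± 0.40, edgeR adjusted p = 0.00031), and Gpc1, a glypican gene, from 65.1 ± 5.43 to 22.8 ± 6.09 CPM (-1.51 ± 0.20, edgeR adjusted p = 0.000154).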
